A study of Homo sapiens with 9 samples.

Results

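The stretch described here is the 200 bases numbered 2780 to 2979, out of 6565 bases (2 to 6566) at which read ends were counted in reporter plasmids built on the huntingtin gene HTT. It was chosen by measured values: base 2960 held most of the counted ends, and no library had an end on the 421 bases from 2980 to 3400, so the 200 bases before that empty stretch were taken. At the borders of this window, bases 2779 and 2780 held 0 ends over all libraries, base 2979 held 1 and base 2980 held 0. The height of base 2960 above the other bases and the emptiness after base 2979 are therefore given as description and were not tested. Tests below compare base 2960 only between plasmids and between cell lines.

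Human embryonic kidney cells of the line HEK293, or of its derivative HEK293T, were transfected with 1 plasmid each. RANQ123 and RANA123 have the AUG codons 1 and 8 of HTT changed to UGA and AUC. WTQ140 and WTA140 keep the normal HTT sequence before the CAG repeats, and Q or A names the reading frame in which nanoluciferase, a small luciferase reporter, was placed. Each of these 4 plasmids was measured in 1 library per cell line, and AUG-NL, a control plasmid without CAG repeats, in 1 HEK293 library. All 9 libraries came from total RNA of transfected cells. With 1 library per plasmid and line, any spread given here is over libraries of unlike plasmids or lines, with no repeated culture behind it.

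Huntingtin carries a run of glutamines encoded by CAG codons near its amino terminus, and expansion of that run causes Huntington's disease. In repeat-associated non-AUG (RAN) translation, ribosomes translate an expanded repeat without an AUG start codon, and in more than 1 reading frame. A scanning ribosome passes the bases just before the repeat on its way to the repeat. In HTT these bases hold the normal start codon and a second in-frame AUG codon. No source used here says which end of a read was counted.

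In GRCh38 (GENCODE annotation), the HTT coding sequence begins in exon 1 on chromosome 4, forward strand, and 51 coding bases lie before the CAG repeat, at chr4:3074826-3074876. The reference repeat follows at 3074877 to 3074933 and has 19 CAG units. These 51 bases are shown because they are the HTT sequence that the WT plasmids are labelled as keeping. On the first line the ATG codons at positions 1 and 8 are in capitals. On the second, capitals mark the 10 bases that lie 20 to 11 bases before the repeat, the distances at which base 2960 and the dense run after it lie before the empty stretch.

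HTT start codons: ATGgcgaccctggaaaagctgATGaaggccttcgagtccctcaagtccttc
HTT 20 to 11 bases before the repeat: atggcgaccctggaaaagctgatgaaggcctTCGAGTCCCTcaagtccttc

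No source used here gives the sequence behind the base numbers, and the place of the repeat could not be read from it. The label of the window as lying just before the repeat rests on the empty stretch alone. That stretch has 421 bases, empty in the RAN and the WT libraries alike. The 140 in the WT plasmid names would make 420 bases of CAG triplets, but the 123 in the RAN plasmid names would make 369. If base 2980 were the first base of the repeat, codon 1 would end at base 2931, codon 8 would take bases 2950 to 2952, and base 2960 would be coding base 32, in codon 11. The first 149 bases of the window would then lie before the coding sequence. This numbering is an assumption used below only to name bases.

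The window held 24365 of the 25261 ends counted over the 8 repeat-plasmid libraries. In HEK293 its ends numbered 3948 (RANQ123), 8129 (WTQ140), 5143 (RANA123) and 3435 (WTA140). In HEK293T the same plasmids had 702, 2256, 375 and 377. WTQ140 was highest in both lines, and each HEK293T library lay below its HEK293 partner. The share of a library's ends inside the window ran from 95.7% (WTQ140 in HEK293, exact Clopper-Pearson 95% interval 95.3 to 96.2) to 97.9% (RANQ123 in HEK293T, 96.6 to 98.8). AUG-NL held 0 ends in the window. Its total over all bases was also 0, so its library gives no upper limit for a share. Intervals here cover counting error only.

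Base 2960, which lies 20 bases before the empty stretch, held 3838 ends (RANQ123), 7896 (WTQ140), 5004 (RANA123) and 3349 (WTA140) in HEK293. It held 688, 2200, 370 and 371 in HEK293T. That was 97.1% (WTQ140 in HEK293, 96.8 to 97.5) to 98.7% (RANA123 in HEK293T, 96.9 to 99.6) of the window's ends. With base 2960 included, the mean distance of an end to the empty stretch lay between 19.98 and 20.58 bases in every library, so the mean says little beyond that base.

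**Figure D1:**
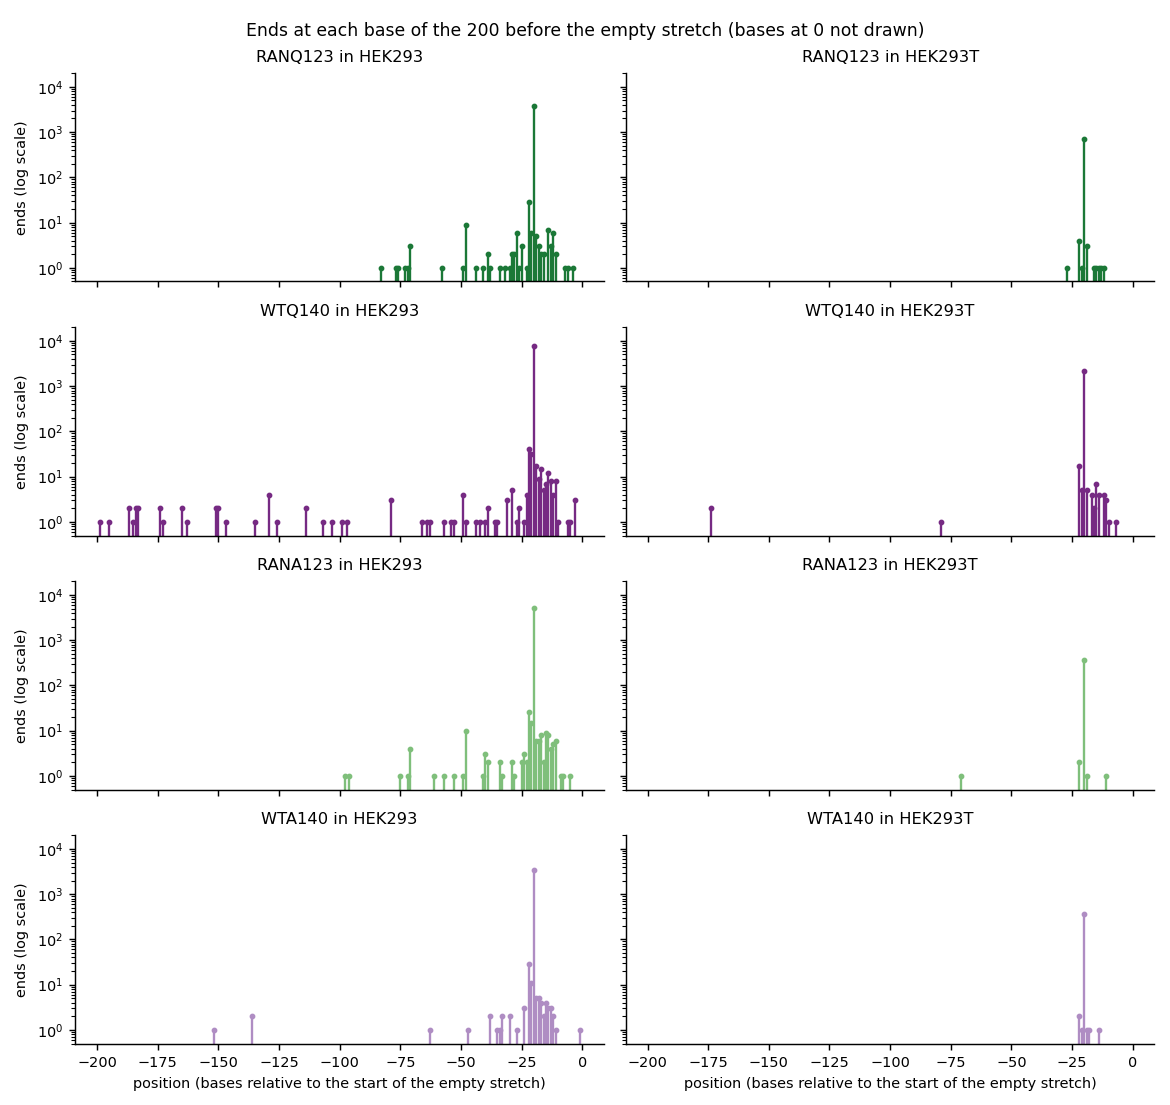
Ends (log scale) at each of the 200 bases against position in bases relative to the first base of the empty stretch, 1 panel per library, with HEK293 on the left and HEK293T on the right. In all 8 panels the highest line stands 20 bases before the stretch (370 to 7896 ends), and WTQ140 in HEK293 has ends along the whole window.

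Without base 2960, the other 199 bases held 649 ends. In HEK293 these were 110 (RANQ123), 233 (WTQ140), 139 (RANA123) and 86 (WTA140), and there were 14, 56, 5 and 6 in HEK293T. Base 2960 held 33.9 to 38.9 ends for each of these in HEK293 and 39.3 to 74.0 in HEK293T. The 199 bases held 1.29% (RANA123 in HEK293T, 0.419 to 2.97) to 2.74% (WTQ140 in HEK293, 2.41 to 3.11) of all ends in a library. Ends were thinly spread, with 84 of the 199 bases holding any end in any library. Of the window's bases, 44 had ends in 1 library only, 27 of them in WTQ140 in HEK293. Only 3 bases, 2958, 2960 and 2961, had ends in all 8 repeat-plasmid libraries.

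The ends outside base 2960 lay close to it. Within 2 bases of it lay 38.1 to 83.3% of them (median 52.6% over 8 libraries), and within 10 bases 73.6 to 100% (median 83.03%). Their median distance to the empty stretch was 21.0 to 22.0 bases in HEK293 and 19.0 to 22.0 in HEK293T. Their mean distance ran from 18.8 bases in RANQ123 in HEK293T to 29 in RANA123 in HEK293T, with WTQ140 in HEK293 apart at 40.1.

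The spread around base 2960 was not even on its 2 sides. On the side away from the empty stretch the dense ends took 2 bases: base 2958 held 149 ends and base 2959 held 71, against 7 at base 2957. In HEK293 base 2958 held 29 ends (RANQ123), 41 (WTQ140), 26 (RANA123) and 28 (WTA140), against 4, 17, 2 and 2 in HEK293T. Base 2959 held 6, 32, 15 and 11 in HEK293, and 1, 5, 0 and 1 in HEK293T. Base 2958 was thus above its neighbour 2959 in 8 of 8 libraries. Set against base 2960, base 2958 held 5.19 to 8.36 ends per 1000 in HEK293 and 5.39 to 7.73 in HEK293T, so the ranges of the 2 lines overlapped.

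On the side towards the empty stretch, the ends formed a run of 9 bases, 2961 to 2969, with 14 to 43 ends at each base over all libraries. In HEK293 the run held 30 ends (RANQ123), 85 (WTQ140), 54 (RANA123) and 29 (WTA140), against 8, 29, 2 and 3 in HEK293T. It stopped between base 2969, with 21 ends in 6 libraries, and base 2970, with 2 ends in 2 libraries. The last 10 bases before the empty stretch held 15 ends in all, and fewer per base than the run before them in 8 of 8 libraries. The last base with an end was 2979, with 1 end in WTA140 in HEK293. These borders were set after the counts were seen and carry no test.

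**Figure D2:**
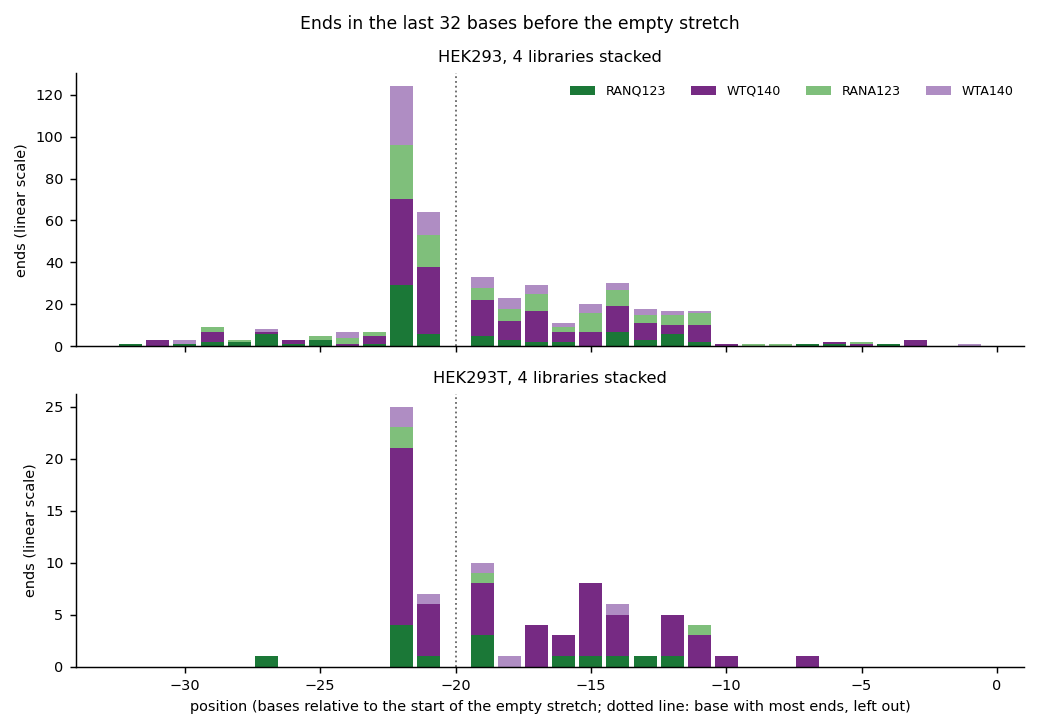
Ends (linear scale) at the last 32 bases before the empty stretch, with base 2960 (dotted line) left out, stacked over the 4 plasmids in HEK293 (top) and HEK293T (bottom). In both lines base 2958, 22 bases before the stretch, is highest (124 and 25 ends), and ends are nearly absent over the last 10 bases.

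Further from base 2960 the window fell into a middle part of 78 bases, 2880 to 2957, and a far part of 100 bases, 2780 to 2879. The middle part held 139 ends and the far part 35. In the far part, WTQ140 had 30 ends on 19 bases in HEK293 and 2 in HEK293T, and WTA140 had 3 in HEK293. The other libraries had 0 there. For WTQ140 in HEK293 that was 12.9% of its ends outside base 2960. A count of 0 allows up to 2.73% in RANQ123 and 2.16% in RANA123 in HEK293, but 21.4% or more in RANQ123, RANA123 and WTA140 in HEK293T. WTQ140 in HEK293 also held 38 of the 59 ends on the 2778 bases before the window, so its ends were not limited to the window. Its mean distance, 40.1 bases, stood above the 25.7 to 27.8 of the other HEK293 libraries.

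Relative to the rest of the reference, the 199 bases were dense. They held 3261 ends per 1000 bases over all libraries, against 21.2 on the bases before the window and 2800 on the first 240 bases after the empty stretch. As the window was chosen for its ends, this is a description.

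RAN and WT plasmids were compared to see whether the ends before the repeat moved once the start codons were changed. Both kinds kept base 2960 as the highest base. In the far part the RAN libraries held 0 of 268 ends outside base 2960, which allows up to 1.12%, and the WT libraries 35 of 381 (9.19%), 30 of them in WTQ140 in HEK293. RAN was lower there in 3 pairs and equal in 1 (exact sign-flip p = 0.25, adjusted p = 0.417). The middle part went the other way. In HEK293 the middle part held 42 of 110 ends outside base 2960 in RANQ123 (38.2%, interval 29.1 to 47.9) and 39 of 233 in WTQ140 (16.7%, 12.2 to 22.2). It held 41 of 139 in RANA123 (29.5%, 22.1 to 37.8) and 14 of 86 in WTA140 (16.3%, 9.20 to 25.8). In HEK293T it held 1 end each in RANQ123, WTQ140 and RANA123 and 0 in WTA140, so those libraries carry little weight. Per 1000 ends at base 2960 the middle part held 10.9 in RANQ123 against 4.94 in WTQ140, and 8.19 in RANA123 against 4.18 in WTA140. Over the 4 matched pairs of libraries the share was 15.0 percentage points higher in RAN, and higher in 4 of 4 pairs. The two-sided exact sign-flip permutation p was 0.125, the smallest that 4 pairs allow (0.417 adjusted by Benjamini-Hochberg over 15 tests of 5 parts of the window). The pair of A plasmids in HEK293T enters that mean as 20% against 0%, from 1 end of 5 against 0 of 6. The parts were drawn after the counts were seen.

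Base 2932 carried part of that difference. It lies 48 bases before the empty stretch and, in the assumed numbering, is the first base after codon 1. In HEK293 it held 9 ends (RANQ123), 1 (WTQ140), 10 (RANA123) and 0 (WTA140), against 0 in all 4 HEK293T libraries. Both RAN libraries in HEK293 were thus above both WT libraries. On codon 1 itself, in that numbering, this was not so: it held 1 end (RANQ123), 4 (WTQ140), 1 (RANA123) and 0 (WTA140) in HEK293. Base 2953, the first base after codon 8 in that numbering, held 6, 1, 0 and 1 in HEK293 in the same order, and 1 in RANQ123 in HEK293T. There only RANQ123 was high, and RANA123 held 0. Base 2909, singled out after its values were seen, held 3 ends in RANQ123 and 4 in RANA123 in HEK293, 1 in RANA123 in HEK293T, and 0 in all WT libraries. It is the base with most ends among 18 bases (33 ends) that held ends in RAN libraries alone. Another 36 bases (60 ends) held ends in WT libraries alone, 27 of them only in WTQ140 in HEK293, the deepest library. The window had 85 bases with any end. In each of these sets only 5 bases had ends in more than 1 library. Depth also differed, with 268 ends in RAN against 381 in WT when the highest base is left out. The part of depth in these counts was not tested, so they are description only. The RAN libraries held 8 of 268 ends at base 2909 (2.99%). The 0 of 381 in WT, which allows up to 0.787%, follows from that choice and is no test. Without bases 2932 and 2909, the middle part still held 30.6% of the ends in RANQ123 against 16.4% in WTQ140, and 21.6% in RANA123 against 16.3% in WTA140, in HEK293. In HEK293T, RANA123 then held 0, as did WTA140, so 4 of 4 pairs no longer differed in 1 direction.

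**Figure D3:**
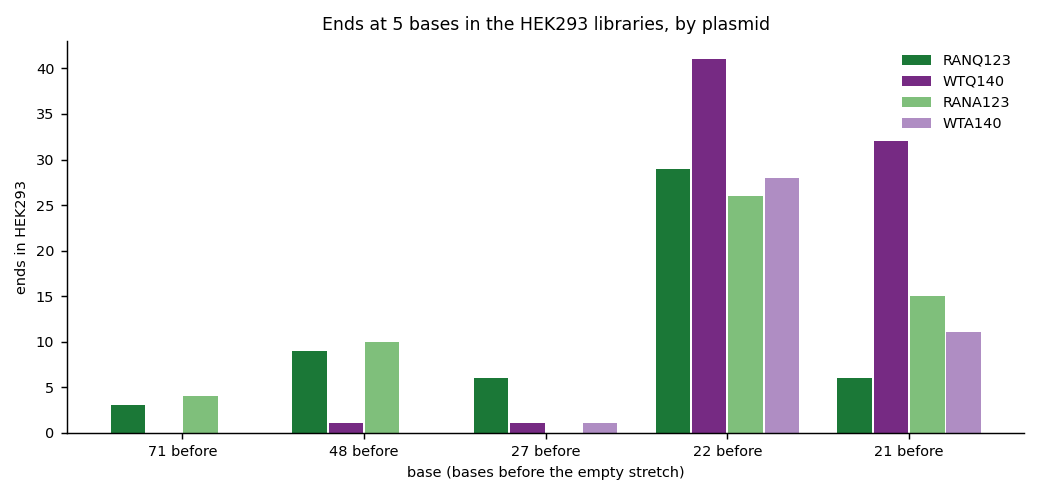
Ends in the 4 HEK293 libraries, by plasmid, at bases 2909, 2932, 2953, 2958 and 2959, named on the horizontal axis by their distance to the empty stretch (71, 48, 27, 22 and 21 bases). Both RAN plasmids exceed both WT plasmids at 71 and 48 bases, but the base at 71 was chosen for having ends in RAN libraries alone. WTQ140, the deepest library, has the most ends at 22 and 21 bases, though per 1000 ends at base 2960 it has the fewest at 22 bases (5.193).

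Base 2959 went the other way. It held 5.85% ± 4.49 (SD, n = 4 libraries) of the ends outside base 2960 in RAN and 13.0% ± 3.19 (n = 4) in WT, and in each of 4 pairs RAN was the lower (exact sign-flip p = 0.125; adjusted p = 1.0 over 45 tests of named bases). Pooled over libraries, base 2959 held 8.21% (22 of 268 ends) in RAN and 12.9% (49 of 381) in WT. Its HEK293T pairs rest on few ends: 1 of 14 against 5 of 56 in the Q plasmids, and 0 of 5 against 1 of 6 in the A plasmids. Base 2958, beside base 2959, held 28.4% ± 8.81 (n = 4) in RAN and 28.5% ± 7.35 (n = 4) in WT, with RAN higher in 2 of 4 pairs. The ends within 5 bases of base 2960 made up 58.7% ± 10.3 (n = 4) in RAN and 70.8% ± 11.1 (n = 4) in WT, lower in RAN in 3 pairs and equal in 1 (exact sign-flip p = 0.25, adjusted p = 0.5 over 18 tests). That difference was -12.6 points within HEK293. Within HEK293T it was -11.7, the mean of 0 in the Q pair and -23.3 in the A pair, which had 5 and 6 ends.

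The test across all bases called nothing in the window between RAN and WT. edgeR's quasi-likelihood test covered the 4 bases with at least 10 counts in 2 libraries, 3 of them in the window (2958, 2959 and 2960), and called 0 of the 4 (0%) at an adjusted p under 0.05. At an unadjusted p under 0.05 the count among the 3 was also 0, as it was with DESeq2. The log2 fold change was -0.77 at base 2959 (adjusted p = 0.852) and -0.12 at base 2958 (adjusted p = 1.00). At base 2959 it moved to -0.27 without RANQ123, -0.39 without WTQ140, -1.33 without RANA123 and -1.21 without WTA140 in HEK293. Without RANA123 its unadjusted p was 0.0193 and its adjusted p 0.0580. That of base 2960 is not given, because scaling over 4 bases holds it at 0. Base 2960 was therefore not open to a call, and in the window only bases 2958 and 2959 were. When the filter was lowered to at least 5 counts in 2 libraries, 11 window bases were tested and edgeR called 1, base 2932, among 3 of 17 tested bases called (17.6%). Its log2 fold change was 4.06, higher in RAN, at an adjusted p of 0.0185. It passed that filter only through the 2 RAN libraries in HEK293, the group where it is high, and would not be tested without either. The call therefore cannot decide whether base 2932 differs between RAN and WT. With no filter its adjusted p was 0.968. The RAN and WT plasmids also differ in the number in their names, 123 or 140, so start codons and that number cannot be told apart.

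Other measures of the window differed between RAN and WT by less than the spread between libraries. The window held 96.9% ± 0.704 (n = 4) of all ends in RAN and 96.9% ± 0.897 (n = 4) in WT (exact sign-flip p = 1.0), a difference of 0.361 points within HEK293 and -0.427 within HEK293T. The mean distance to the empty stretch was 25.5 ± 4.58 bases (n = 4) in RAN and 27.4 ± 8.92 (n = 4) in WT (exact p = 0.75), a difference of -5.92 bases within HEK293 and 2.08 within HEK293T. The sign of this difference turned without the far part: over the last 100 bases alone RAN was 4.78 bases further from the stretch (exact sign-flip p = 0.125, the smallest possible). Of the ends outside base 2960, 42.0% ± 11.2 (n = 4) lay after it in RAN and 44.8% ± 9.48 (n = 4) in WT (exact p = 0.5).

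The A plasmids were set against the Q plasmids to see whether the reporter's frame, set beyond the repeat, went with ends before it. The 199 bases without base 2960 held 1.97% ± 0.647 (n = 4) of all ends in A and 2.45% ± 0.362 (n = 4) in Q, lower in A in 4 of 4 pairs. Base 2960 held 98.0% ± 0.672 (n = 4) of the window's ends in A and 97.5% ± 0.395 (n = 4) in Q, higher in A in 4 of 4 pairs. Both gave an exact sign-flip p = 0.125 (0.45 adjusted over 18 tests), and both measure the same ends. The groups overlapped in both measures. Within HEK293 the difference in the 199 bases was -0.203 points and within HEK293T -0.772 points. The HEK293T value rests on 5 and 6 ends in the A libraries.

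By position, the parts of the window did not pass the test between A and Q. The middle part held 16.4% ± 12.3 (n = 4) of the ends outside base 2960 in A and 16.0% ± 16.1 (n = 4) in Q (exact sign-flip p = 1.0). The run from 2961 to 2969 held 40.6% ± 6.81 (n = 4) with A and 43.2% ± 13.7 (n = 4) with Q (exact p = 0.625). Among the named bases, base 2968 held 1.48% ± 1.79 (n = 4) in A and 5.36% ± 2.56 (n = 4) in Q, and base 2964 held 0.941% ± 1.15 (n = 4) and 3.67% ± 2.44 (n = 4). In 3 of the 4 pairs A was the lower at each of these bases (exact sign-flip p = 0.25; adjusted p = 1.0 over 45 tests). Those means include the A libraries in HEK293T, which had 5 and 6 ends outside base 2960 and 0 at both bases. Pooled over libraries, base 2968 held 2.97% (7 of 236 ends) in A and 3.63% (15 of 413) in Q. Pooled likewise, base 2964 held 1.695% (4 ends) in A and 2.42% (10 ends) in Q. Base 2932, which held more ends in RAN, held 10 ends in A and 10 in Q. The mean distance was 25.1 ± 4.09 bases (n = 4) with A and 27.7 ± 9.04 (n = 4) with Q (exact p = 0.625), with the highest value, 40.1, in a Q library. The sign differed between the lines: A minus Q was -7.98 bases within HEK293 and 2.63 within HEK293T. edgeR called 1 of 4 tested bases between A and Q (25%), and it lay outside the window. None of the 3 window bases had an unadjusted p under 0.05, and DESeq2 called 0 there. In the edgeR fit base 2960 was again held at 0 by the scaling and not open to a call.

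HEK293T and HEK293 were compared because both lines carried the same 4 plasmids. HEK293T had fewer ends in the window, by 5.62-fold (RANQ123), 3.60-fold (WTQ140), 13.7-fold (RANA123) and 9.11-fold (WTA140). Library totals over all bases fell nearly alike. They were 4087, 8492, 5328 and 3553 ends in HEK293 and 717, 2308, 389 and 387 in HEK293T, in the same order. These window folds therefore follow the depth of the libraries. On the window's bases outside base 2960 the drop was larger for each plasmid, at 7.86-fold, 4.16-fold, 27.8-fold and 14.3-fold. These folds rest on 110, 233, 139 and 86 ends in HEK293 against 14, 56, 5 and 6 in HEK293T. The 199 bases thus held 1.80% ± 0.498 (n = 4) of all ends in HEK293T and 2.62% ± 0.142 (n = 4) in HEK293, lower in HEK293T in 4 of 4 pairs. Base 2960 held 98.2% ± 0.501 (n = 4) of the window's ends in HEK293T and 97.3% ± 0.156 (n = 4) in HEK293, higher in 4 of 4 pairs. The groups parted only narrowly, and counting intervals overlapped. The lowest HEK293T value was 97.52% (WTQ140, interval 96.79 to 98.12), and the highest HEK293 value was 97.5% (WTA140, 96.92 to 97.99). Each exact sign-flip p was 0.125, the smallest possible (0.45 adjusted over 18 tests). Taken as a share of the ends outside base 2960 only, the 199 bases differed little between the lines. They averaged 42.08% of those ends in HEK293 (39.09 to 44.18) and 40.99% in HEK293T (26.32 to 51.85). That difference was -1.096 points (exact sign-flip p = 0.875), so the smaller share of all ends was not particular to this window. The edgeR call rule marked 0 of 4 bases (0%) between the lines, with 0 window bases at an unadjusted p under 0.05, and DESeq2 called 0. Here too the scaling held base 2960 at 0 in edgeR, so it was not open to a call.

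The largest drop relative to base 2960 was in the middle part. Pooled over plasmids, it held 136 of 568 ends outside base 2960 in HEK293 (23.9%) and 3 of 81 in HEK293T (3.70%), and was lower in HEK293T in 4 of 4 pairs. Per 1000 ends at base 2960 that was 6.77 in HEK293 and 0.827 in HEK293T, pooled over plasmids. Beside base 2960 the levels of the lines lay nearer to each other. Bases 2958 and 2959 together held 9.36 per 1000 in HEK293 and 8.82 in HEK293T, and the run from 2961 to 2969 held 9.86 and 11.6. As shares of the ends outside base 2960, averaged over libraries, the run held 34.1% ± 5.00 (n = 4) in HEK293 and 49.7% ± 7.16 (n = 4) in HEK293T, and the middle part 25.2% ± 10.6 (n = 4) and 7.23% ± 9.04 (n = 4). Both differences had the same sign in 4 of 4 pairs, with an exact sign-flip p = 0.125 (adjusted p = 0.417 over 15 tests). WTQ140 gives the firmest pair: its middle part held 16.7% (12.2 to 22.2) in HEK293 and 1 of 56 ends, 1.79% (0.0452 to 9.55), in HEK293T. In the other HEK293T libraries only 5 to 14 ends lay outside base 2960.

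**Figure D4:**
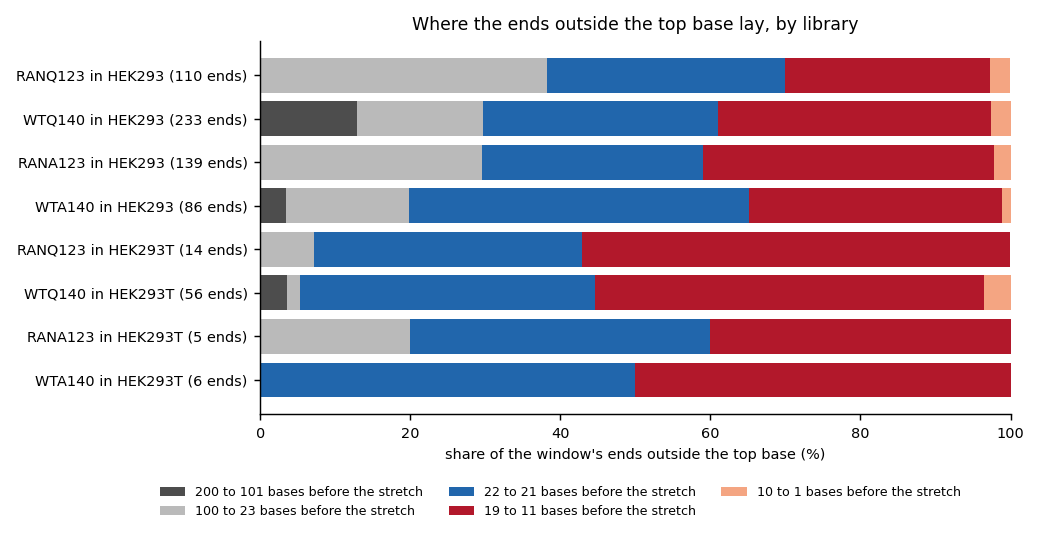
Share (%) of the window's ends outside base 2960 that lay in each of 5 parts, named by their distance to the empty stretch, with 1 bar per library and its number of ends. The part 100 to 23 bases before the stretch is largest in the RAN plasmids in HEK293 (38.2% and 29.5%), and the part farthest away is largest in WTQ140 in HEK293 (12.9%).

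The ends outside base 2960 also lay nearer to it in HEK293T. Within 5 bases lay 71.6% ± 9.53 (n = 4) in HEK293T and 57.9% ± 10.6 (n = 4) in HEK293, and each of the 4 pairs was higher in HEK293T (exact sign-flip p = 0.125, adjusted p = 0.45). The mean distance to the empty stretch was 22.9 ± 4.79 bases (n = 4) in HEK293T and 30.0 ± 6.82 (n = 4) in HEK293, shorter in 3 of 4 pairs (exact p = 0.25). The difference of -7.11 bases moved to -4.20 without the WTQ140 pair, whose HEK293 library had the mean of 40.1 bases, and to -10.4 without the RANA123 pair. After base 2960 lay 50.6% ± 7.71 (n = 4) in HEK293T and 36.2% ± 4.88 (n = 4) in HEK293, higher in 3 of 4 pairs (exact p = 0.25). Thinned to 375 window ends each, HEK293 libraries had ends on 7.29 to 9.13 bases and HEK293T libraries on 5.00 to 6.95. The HEK293 libraries were batch 1 and the HEK293T libraries batch 2, so line and batch cannot be told apart. Totals also differed between the lines, and the part of depth in these differences was not tested beyond that thinning.

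**Figure D5:**
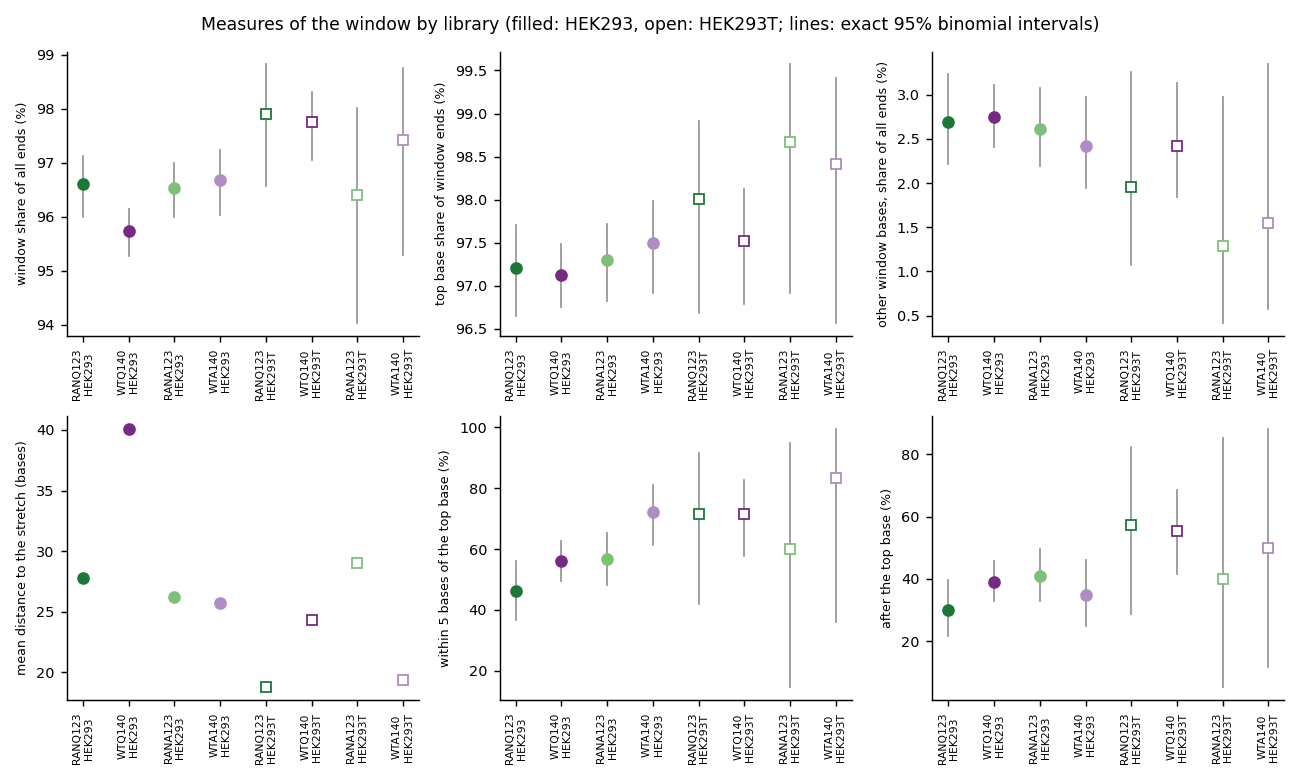
Measures of the window (6 panels) for each library, in percent or bases, with filled circles for HEK293, open squares for HEK293T and grey lines for exact 95% binomial intervals (none for the mean distance). The share at base 2960 is higher in each HEK293T library than in any HEK293 library, but only narrowly (lowest 97.52% against highest 97.5%). WTQ140 in HEK293 stands apart in mean distance at 40.1 bases.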

How the data were processed

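The deposited values are raw counts of ends per base, 1 file per library, per the file headers. Build hg38 and the tools STAR, SAMtools and cutadapt 4.9 come from the submitters' processing notes, which give no roles. No source used here states the kind of end, the reference of the base numbers, or how multiple alignments or PCR copies were handled, and each could move ends near a repeat. Library totals were 387 to 8492 ends in the 8 repeat-plasmid libraries and 0 in AUG-NL, so 3 ends, the limit for a count of 0, were up to 60.0% of the ends outside base 2960 in the shallowest window.

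Counts were used as deposited. edgeR 4.0.16 in R 4.3.3 (TMM, quasi-likelihood, Benjamini-Hochberg over all tested bases) fitted start codon state, frame and cell line additively over 8 libraries. The edgeR fit was tried on simulated data with library totals and no TMM, so the TMM step was not covered. Shares and distances were compared by two-sided exact sign-flip tests over 4 matched pairs in Python 3.11.15, which cannot give p under 0.125. The 18 tests of 6 measures, 15 of window parts and 45 of named bases were each adjusted together. Named bases passed the count filter, held at least 5 ends in 1 library or ends in at least 4 libraries, or came last before the empty stretch. The window, its parts, the bases and the tests were chosen with earlier results of these data known. Alternatives covered scaling, filter, DESeq2 1.42.0, 10-base windows, window length and each library left out. HTT sequence came from GENCODE transcripts (GRCh38).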

Additional observations from a re-analysis of the deposited data

Results flagged for a closer look

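Each of 36 sets of 4 libraries (6 measures, by start codon state, frame or line) was searched for a library far from the others, where chance sets about 1 in 20 apart, and 3 were found. WTQ140 in HEK293 had a mean distance to the empty stretch of 40.1 bases among the HEK293 libraries, and the lowest window share there, 95.7%. RANQ123 in HEK293T had a window share of 97.9%, above the other RAN libraries.

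In 2 of 36 comparisons, both pairs of one kind moved against both pairs of the other. With only 2 pairs of each kind, random signs readily give this pattern, so 2 cases among 36 do not stand out. RAN minus WT in window share was lower by 1.10 percentage points in the A plasmids than in the Q plasmids (the A minus Q difference of the differences was -1.10), being negative in both A pairs and positive in both Q pairs. RAN minus WT in mean distance was 14.0 bases larger in the A plasmids, positive in both A pairs and negative in both Q pairs. Neither difference was tested.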

How the results depend on the processing

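The count of called window bases was 0 in each comparison and under each alternative and left-out library, with 1 exception. The filter of at least 5 counts in 2 libraries gave 1 between RAN and WT (base 2932), which passed it only through RAN libraries. No block by replicate number could be fitted, because each plasmid has 1 library per line. The sign-flip tests pair libraries that differ in 1 factor. Scaling by ends outside base 2960, that scaling with no filter or over 10-base windows, and HEK293 libraries alone were chosen after seeing the data.

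None of the 18 tests of shares and distances could pass 0.05, and 58 of 63 alternative values kept their sign. With 100 bases in place of 200, RAN minus WT turned to 0.0982 points in window share and to 4.78 bases in mean distance, and A minus Q to 1.93 bases. By the median distance they were 0.5 (RAN minus WT) and 1.0 bases (A minus Q). Leaving out 1 library with its pair, 132 of 144 values kept their sign. Leaving out either library of a pair drops the same pair and gives the same value. Each value therefore appears among the 144 for both libraries of its pair, as do those that turned, and the 144 are not separate checks. The 12 that turned were in RAN minus WT for window share (-0.335 to 0.295 points) and mean distance (-5.78 to 1.55 bases), and in A minus Q for window share (-0.636 to 0.184), mean distance (-6.97 to 1.23) and the share after base 2960 (-8.89 to 0.493).

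Uncalled log2 fold changes near 0 also turned. Base 2958 between A and Q was -0.0043, against 0.0073 with DESeq2 size factors in edgeR, 0.0027 with library totals, 0.038 with DESeq2, 0.084 and 0.10 with totals outside base 2960 (without filter the latter), 0.085 in HEK293 alone, and -0.45 to 0.48 with a library left out. Between the lines it was 0.036, against -0.67 with no filter, -0.11 with the lower filter and -0.47 to 0.37 with a library left out. Between RAN and WT it was -0.57 to 0.35 with a library left out. Base 2959 between A and Q was -0.0041 with DESeq2, and -0.30 to 0.70 with a library left out. The cause was not tested.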
